A study of Mus musculus with 2 samples.

Results

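The genes described here are the collagen chains, the laminin chains, both nidogens, perlecan and agrin of the mouse kidney. They were chosen by name alone: every gene whose symbol is Col, digits, a and digits, every Lama, Lamb or Lamc gene followed by a digit, and Nid1, Nid2, Hspg2 and Agrn, with at least 20 unique molecular identifiers (UMIs, each standing for 1 captured transcript) over both libraries. All 47 such genes reached that number, of 21855 genes in the matrix: 32 collagen chains, 11 laminin chains and 4 others. The kidneys were from wild type mice, control or with nephropathy caused by folic acid (FA), an injury that harms the tubules. Single cells were captured in droplets with barcoded gel beads, as 1 control and 1 FA library. The number of mice behind each library, their strain, age and sex, the FA dose and the time after FA were not given in the sources used here. With 1 library a group there was no replicate check and no test, so every value below describes these libraries and every interval is a 95% interval for counting error only.

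Fibrillar collagens (types I, III, V and others) form the fibres of connective tissue and are made mainly by fibroblasts. A basement membrane, the sheet under epithelia and around capillaries, is a network of collagen IV tied by nidogens and the heparan sulfate proteoglycans perlecan (Hspg2) and agrin to a network of laminins, each a trimer of an alpha, a beta and a gamma chain. Most basement membranes hold collagen IV built of Col4a1 and Col4a2, whereas that of the kidney filter holds Col4a3, Col4a4 and Col4a5, made by podocytes, the cells that wrap the glomerular capillaries.

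The collagen IV genes lie as pairs that are read in opposite directions from neighbouring starts, and their start regions are shown because members of a pair are compared below. In the RefSeq annotation of GRCm38.p6, Col4a1 (minus strand) and Col4a2 (plus strand) overlap by 22 bases at chr8:11312805-11312826, and the Col4a4 (minus) and Col4a3 (plus) starts have 71 bases between them at chr1:82586850-82586920, although other RefSeq models of Col4a1 and Col4a4 begin further upstream. Col4a6 (minus) and Col4a5 (plus) have 1274 bases between them on chromosome X, of which the 100 bases before each gene, chrX:141474096-141474195 and chrX:141475270-141475369, are given. Sequences run 5′ to 3′ on the plus strand for the first and last and on the minus strand for the others, and capitals mark GGGCGG, a GC box, searched with CCAAT on both strands, where a match of one could overlap a match of the other.
Col4a1 and Col4a2: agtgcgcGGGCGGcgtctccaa
Col4a4 and Col4a3: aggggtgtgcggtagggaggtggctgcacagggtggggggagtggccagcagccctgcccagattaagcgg
Col4a6: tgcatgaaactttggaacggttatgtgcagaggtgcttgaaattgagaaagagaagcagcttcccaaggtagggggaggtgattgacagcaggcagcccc
Col4a5: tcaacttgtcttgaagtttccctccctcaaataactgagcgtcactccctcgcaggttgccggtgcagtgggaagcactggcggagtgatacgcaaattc
GGGCGG was found in the overlap of the first pair and in none of the other 3 stretches, and CCAAT in none of the 4. In windows of 250 bases before to 50 after a start, GGGCGG was in 35.7% of all 32851 windows and in 24 of the 37 windows of 33 matched members, and CCAAT in 37.4% of all windows and in 12 of the 37. These matches are descriptions of letters, not of bound sites.

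The control library held 9681 barcodes with 63646459 UMIs and the FA library 18997 with 84138607, and 54 barcode sequences were in both. After filters on UMIs, genes and mitochondrial share and the removal of likely doublets, 5807 control and 13502 FA cells stayed, with medians of 4713 and 2895 UMIs. Clusters built without the 47 genes were named from fixed markers: in control and FA there were 216 and 224 stromal-like, 83 and 835 podocyte-like, 967 and 130 endothelial-like, and 2108 and 2167 proximal or injured tubule-like cells. Stromal-like cells were 1 cluster of mural-like cells (150 and 156, by markers of pericytes, smooth muscle and renin cells) and 1 of fibroblast-like cells (66 and 68). Markers of mesangial cells were in at least 10% of the cells too, 5 in the mural-like and 4 in the fibroblast-like cluster. All 10 podocyte, all 11 endothelial and 13 of 16 stromal markers were in at least 10% of the cells so named in both libraries. Xist had 15 UMIs in control and 104149 in FA, and the Y-linked Ddx3y 3928 and 0, so treatment and the sex of the mice cannot be told apart.

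Levels are counts per 1000000 UMIs (CPM) of the cells concerned, are not scaled for transcript length and are compared within a gene only. A gene needed 20 UMIs in a class, counted over the 2 libraries, to be measured there, and was called higher or lower in FA at a ratio of 1.5 or of its inverse. A gene was said to peak in a class where its level was at least 1.5 times that in every other class of 50 or more cells. In control, 16 of 45 members measured peaked in stromal-like cells, against 4.49% of all genes measured. Another 3 (Col4a3, Col4a4 and Col4a5) peaked in podocyte-like cells, where 3.96% of all genes did, and 3 (Col15a1, Lama4 and Hspg2) in endothelial-like cells, where 4.10% did. Parietal epithelial-like cells, which line the glomerular capsule, had 5 (3.16% of all genes), Col4a1 and Col18a1 among them, and urothelial-like cells 3 (2.80%), and 13 peaked nowhere. Of those 5, Col26a1 was at 4.11 CPM only and was higher in principal-like cells, which at 47 cells were left out of the search. In FA, 17 of 44 peaked in stromal-like cells (4.06% of all genes), Col4a3, Col4a4 and Col4a5 in podocyte-like cells (4.78%), and 4 in endothelial-like cells (4.32%). The classes of 50 or more cells differed between libraries, so the peak counts of control and FA are over unlike sets of classes. Parietal epithelial-like cells, 42 in FA, were left out there. Col18a1, an FA stromal-like peak at 597 CPM, was higher in those parietal epithelial-like cells. Lama5 and Agrn peaked in injured tubule-like cells (1.55%), 4 members in urothelial-like cells (2.58%), and Col11a2, seen in FA only, in neutrophil-like cells (3.16%). The peak of Col11a2 was at 9.90 CPM in a class of 706977 UMIs, so most of its 52 FA UMIs lay in other cells. Col27a1, a fibrillar collagen of cartilage, peaked in proximal tubule-like cells of both libraries (4.16% and 3.68% of all genes).

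**Figure D1:**
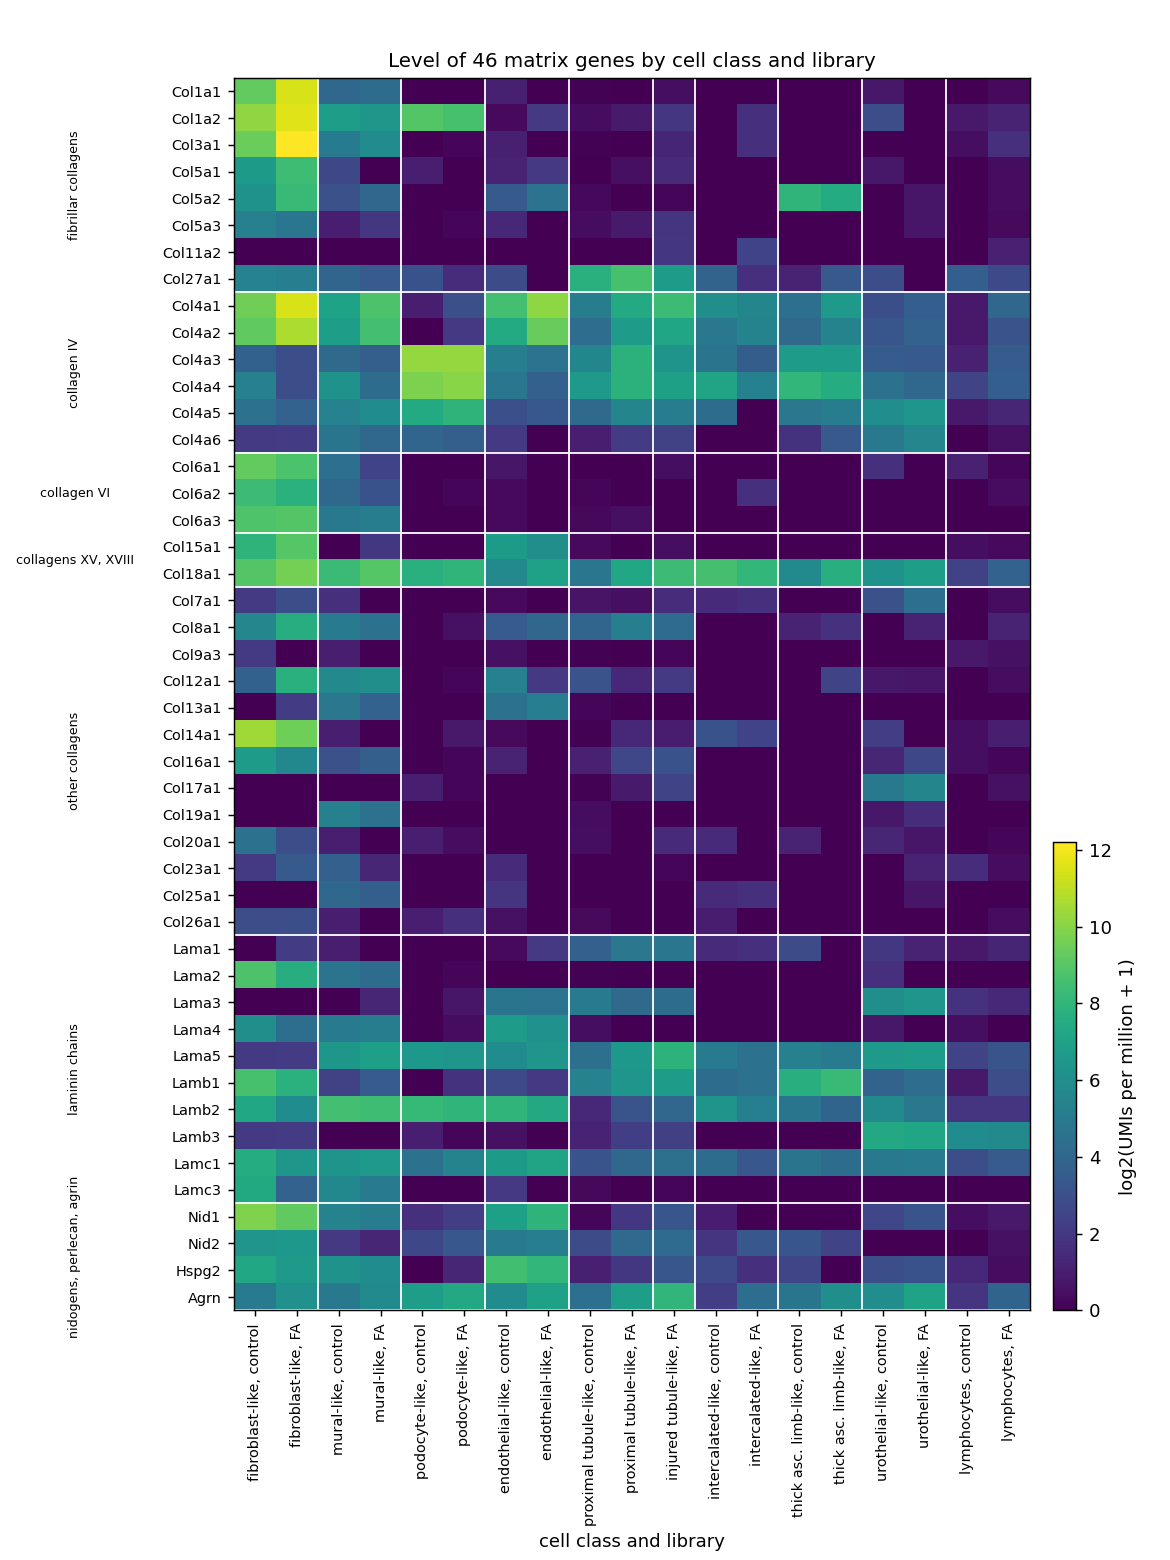
Level of 46 of the genes (rows, by family) in 10 cell groups of the control and FA libraries (columns), as colour on a log2(CPM + 1) scale. Read along a row: Col4a3 and Col4a4 are brightest in podocyte-like cells, Col1a1 and Col3a1 in fibroblast-like cells, and Lama5 and Agrn brighten in the tubule columns of the FA library.

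Over all cells of a library, 4 of 7 fibrillar chains measured were higher in FA and 2 lower, and Hspg2, Nid1, Lama4 and Lama2 were lower. Of 46 members measured, 8 were higher (19.5% of all genes) and 19 lower (29.1% of all genes). Col3a1 was at 6.39 CPM in control and 26.3 in FA, a ratio of 4.11 (3.60 to 4.72), and Col1a1 at 5.34 and 15.1, whereas Col5a2 and Col27a1 were at 0.386 and 0.334 times their control levels. Hspg2 was at 49.4 and 5.83 CPM, a ratio of 0.118 (0.105 to 0.133), and Lama4, a laminin chain of vessels, at 13.7 and 0.988. The share of endothelial-like cells was 16.7% in the control library and 0.963% in the FA library, and 83.2% of control Hspg2 UMIs were theirs. In such totals, fewer cells of a type and less RNA per cell cannot be told apart, so the comparisons below are within classes.

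In fibroblast-like cells 5 of 7 fibrillar collagens and the Col4a1 and Col4a2 pair were higher in FA, while every laminin chain measured was lower. Of 28 members measured, 12 were higher (17.1% of all genes) and 11 lower (32.2% of all genes). Col3a1 (type III collagen) had 211 UMIs or 682 CPM in control and 1402 UMIs or 4688 CPM in FA, a ratio of 6.87 (5.94 to 7.98). Col1a1 (type I collagen) was at 605 and 2776 CPM, a ratio of 4.59 (3.91 to 5.41). Its partner chain Col1a2 was at 1164 and 3093 CPM, a ratio of 2.66 (2.35 to 3.01). Of 7 fibrillar chains measured, 5 were higher and none was lower; Col5a1 and Col5a2, which join type I fibrils, were 3.37 and 3.96 times as high. Col12a1, a fibril-associated collagen, went from 4 to 63 UMIs (12.9 and 211 CPM). Col14a1, another fibril-associated collagen, was at 1397 and 719 CPM, a ratio of 0.515 (0.435 to 0.608), so the fibril-associated chains did not share a direction.

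The collagen IV pair of fibroblast-like cells was higher in FA like the fibrillar chains, and the laminin chains were lower. Col4a1 was at 750.2 CPM in control and 2799 in FA, a ratio of 3.73 (3.22 to 4.33). Col4a2 was at 592 and 1675 CPM, a ratio of 2.83 (2.39 to 3.37). With each cell weighed the same, the log2 ratios in these cells were smaller, at 1.301 for Col4a1 (1.90 when summed), 0.78 for Col4a2 (1.502), 0.83 for Col1a2 (1.41) and 2.32 for Col3a1 (2.78), and those of Lama2 and Col14a1 were -1.81 (-1.20) and -1.62 (-0.96). All 6 laminin chains measured were lower. Lama2, the laminin alpha chain of muscle and mesenchyme, was at 437 and 191 CPM, a ratio of 0.437 (0.315 to 0.599). Lamc3 went from 52 to 4 UMIs (168 and 13.4 CPM), and Lamb1, Lamb2, Lamc1 and Lama4 had ratios between 0.310 and 0.551. The linker Nid1 was at 922 and 585 CPM, a ratio of 0.635 (0.523 to 0.769). The collagen VI chains, which form beaded filaments around cells, were between 0.666 and 1.06 times the control level.

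The FA fibroblast-like cells were shallower and differed in other markers too. Their median was 1727 UMIs against 4439 in control, and 32 of 68 had 2000 UMIs or more. Those 32 gave 5078 CPM of Col3a1 and 213 of Lama2, against 695 and 437 in the 60 control cells of that depth, so the opposite directions were present there too. With each cell thinned to 1000 UMIs, leaving out 3 control and 20 FA cells, 39.7% of control and 72.9% of FA cells held a Col3a1 UMI (74.2% and 66.2% unthinned), against 0.131% and 0.206% of lymphocytes at medians of 2990 and 2654 UMIs. For Lama2 the thinned shares were 28.6% and 6.25% (80.3% and 35.3% unthinned), and lymphocytes held none, in 765 and 2917 cells. Of 7 fibroblast markers, 5 were in at least 10% of control and 4 in at least 10% of FA cells, with a summed level of 9600.2 and 1475 CPM and with Lum and Pi16 at 0 in FA. Of 11 injured tubule markers 2 were in at least 10% of the cells of either library, with a summed level of 414 and 5578 CPM (42.7 and 1924 in lymphocytes). In the cells with 2000 UMIs or more, the contractile genes Acta2 and Tagln were at 113 and 1680.1 and at 497 and 2057 CPM. The part of these markers in the collagen values was not tested. Of FA Col1a1 UMIs, 34.4% lay in barcodes that were not kept, mostly likely doublets. The doublet score used here took 15 neighbours, a number lowered after the data were seen, since a wider score removed the rare classes. Where doublets were scored over more neighbours than the class has cells, 96.2% of FA Col1a1 UMIs were removed (34.9% of those of control). Col3a1 and Col1a1 of the stromal-like cells left then had FA over control log2 ratios of -0.75 and -2.25. Of the stromal-like cells left, 52 of control and 0 of FA were fibroblast-like, so those ratios set unlike mixes of cells side by side. With all likely doublets kept, the log2 ratio of Col3a1 in fibroblast-like cells was 2.66, against 2.78 without them.

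In mural-like cells the Col4a1 and Col4a2 pair, Col18a1, Agrn and Col3a1 were higher in FA, while the intervals of Col1a1 and Col1a2 took in 1. Of 28 members measured, 5 were higher (12.7% of all genes) and 8 lower (20.2% of all genes). Col4a1 was at 133 CPM in control and 440.2 in FA, a ratio of 3.32 (2.69 to 4.11). Col4a2 was at 109 and 371 CPM, a ratio of 3.41 (2.70 to 4.32). Col18a1, whose end fragment is endostatin, was at 314 and 509 CPM, and Agrn at 29.04 and 55.9, a ratio of 1.93 (1.15 to 3.26). Col3a1 was at 32.2 and 57.4 CPM, a ratio of 1.79 (1.09 to 2.96), or 0.84 as log2 against 0.43 with each cell weighed the same, which ends the call. Col1a1 had 15 and 13 UMIs, with a ratio of 1.23 (0.539 to 2.77), and Col1a2 was at 114 and 86.9 CPM, so a change in type I collagen was not detectable at this depth in these cells. Lamb2, a chain of the laminin of vessels and glomeruli, was at 376 and 339 CPM, a ratio of 0.899 (0.759 to 1.06). Col4a4 went from 70 to 13 UMIs, a ratio of 0.264 (0.134 to 0.481), or -1.92 as log2 against -0.85 with likely doublets kept. Col6a1, a collagen VI chain, went from 20 to 3 UMIs, a ratio of 0.213 with a counting interval of 0.0405 to 0.718. At a finer clustering (resolution 2), mural-like cells fell into a cluster of 49 control and 109 FA cells, led by Ren1 and Acta2. Their other cluster held 101 control and 47 FA cells and was led by Rgs5 and Ndufa4l2. The part of this mix in the mural-like ratios was not tested.

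The stromal-like cells as a whole had 12 of 36 members higher (11.8% of all genes) and 8 lower (23.4% of all genes), with a median log2 ratio of -0.20 against -0.14 over all genes. Genes that process collagen differed in the same cells. Of 18 genes that modify or fold collagen chains, 16 were measured, 5 higher and 1 lower: the collagen chaperone Serpinh1 was at 302 and 580 CPM (ratio 1.92), the prolyl hydroxylase subunit P4hb at 116 and 330.2 (2.84), and Ppib at 367 and 531 (1.45). Of 17 that secrete, trim or crosslink it, 13 were measured, 5 higher and 1 lower: the crosslinking enzyme Lox was at 40.0 and 123 CPM, a ratio of 3.06 (2.19 to 4.34), its relative Loxl1 at 151 and 149, and Pcolce at 128 and 167. Of 26 other matrix proteins, 21 were measured, 6 higher and 5 lower: Sparc, which binds collagen, was at 1111 and 2310.1 CPM, Sparcl1 at 2073 and 3813, and Fbln5, which assembles elastic fibres, at 1319 and 505. Of 18 collagen and laminin receptors, 13 were measured, 4 higher and 3 lower: the shared beta subunit Itgb1 was at 702 and 1145 CPM and Itga1, its partner in a collagen receptor, at 573 and 327, a ratio of 0.571 (0.499 to 0.652), while Bcam was at 433 and 377. Of 20 gene names of the TGF-beta pathway, a driver of matrix genes, Ccn2 and its older name Ctgf among them, 18 were measured, 3 higher and 3 lower. Acta2 was at 5849 and 6911 CPM, Ccn2 at 731 and 539, and Ltbp1 at 190.0 and 271. Counts differed between the stromal subgroups. In fibroblast-like cells, 8 of 15 modifying genes were higher and 2 lower, and 6 and 1 of 12 secretion genes. Of 16 other matrix proteins 3 and 7 were, of 7 receptors 1 and 2, and of 16 TGF-beta genes 2 and 7 (17.1% and 32.2% of all genes). In mural-like cells (12.7% and 20.2%), the lists in that order had 3 and 2 of 14, 3 and 0 of 9, 4 and 0 of 11, 2 and 1 of 10, and 4 and 2 of 17.

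Endothelial-like cells showed the same collagen IV pair higher in FA, with fewer cells behind the FA values. Of 21 members measured, 7 were higher (16.3% of all genes) and 6 lower (21.7% of all genes). Col4a1 had 1666 UMIs or 369 CPM in control and 370 UMIs or 1126 CPM in FA, a ratio of 3.05 (2.72 to 3.42). Col4a2 was at 176 and 666 CPM, a ratio of 3.79 (3.25 to 4.40). The FA levels were above control in both large clusters: Col4a1 was at 439 and 1473 CPM in cluster 6 (819 and 75 cells, led by Esm1 and Plvap) and at 231 and 563 in cluster 29 (124 and 54 cells, led by Sox17 and Aqp1). At 1000 UMIs a cell, 30.5% of control and 69.5% of FA endothelial-like cells held a Col4a1 UMI (66.6% and 73.8% unthinned, at medians of 3214 and 2353 UMIs), against 0.131% and 1.27% of lymphocytes.

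The other basement membrane genes of endothelial-like cells differed less and not all the same way. Nid1 was at 120.3 CPM in control and 246 in FA, a ratio of 2.05 (1.60 to 2.59), and Nid2 at 30.1 and 36.5. Col18a1 was at 51.6 and 125 CPM, a ratio of 2.42 (1.69 to 3.38), and Agrn at 57.4 and 125, a ratio of 2.17 (1.52 to 3.03). Hspg2 was at 356 and 271 CPM, a ratio of 0.760 (0.607 to 0.942), or -0.40 as log2, which passed the fold for lower with likely doublets kept (-0.63) or with each cell weighed the same (-0.78). Among laminin chains, Lamb2 was at 248 and 161 CPM, a ratio of 0.650 (0.484 to 0.856). Lama5 was at 59.2 and 82.2, Lamc1 at 100.2 and 140.0 with a ratio of 1.40 (1.01 to 1.90), and Lamb1 at 25 and 1 UMIs. Col4a3, Col4a4 and Col4a5 had 8, 4 and 3 UMIs in FA, and their intervals took in 1. Col15a1, a collagen of capillary basement membranes, was at 97.7 and 63.9 CPM, a ratio of 0.654 (0.401 to 1.01), and Col5a2 at 9.97 and 24.3. Col12a1 was at 175 UMIs in control, all in cluster 29, and 1 UMI in FA. For Col27a1 there were 28 control UMIs but 0 in FA, a count that allowed up to 9.13 CPM, so no ratio is given. Several ratios differed between clusters 6 and 29. Agrn was at 3.08 and 1.15 times its control level, the latter with an interval that took in 1. Lamb2 was at 0.844 and 0.359 times and Hspg2 at 0.882 and 0.393 times, with intervals that took in 1 in cluster 6. Nid1 was called higher in both, at 2.28 and 1.66 times, the latter with 1 inside its interval. Col18a1 had 227 of its 233 control UMIs in cluster 29, where its ratio was 1.76. The share of cells in each cluster differed between libraries. In endothelial-like cells 11 injured tubule markers summed to 166 CPM in control (1 of them in at least 10% of the cells) and 3231 in FA (3 of them). The part of the cluster shares or of these markers in the ratios of the whole class was not tested.

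**Figure D2:**
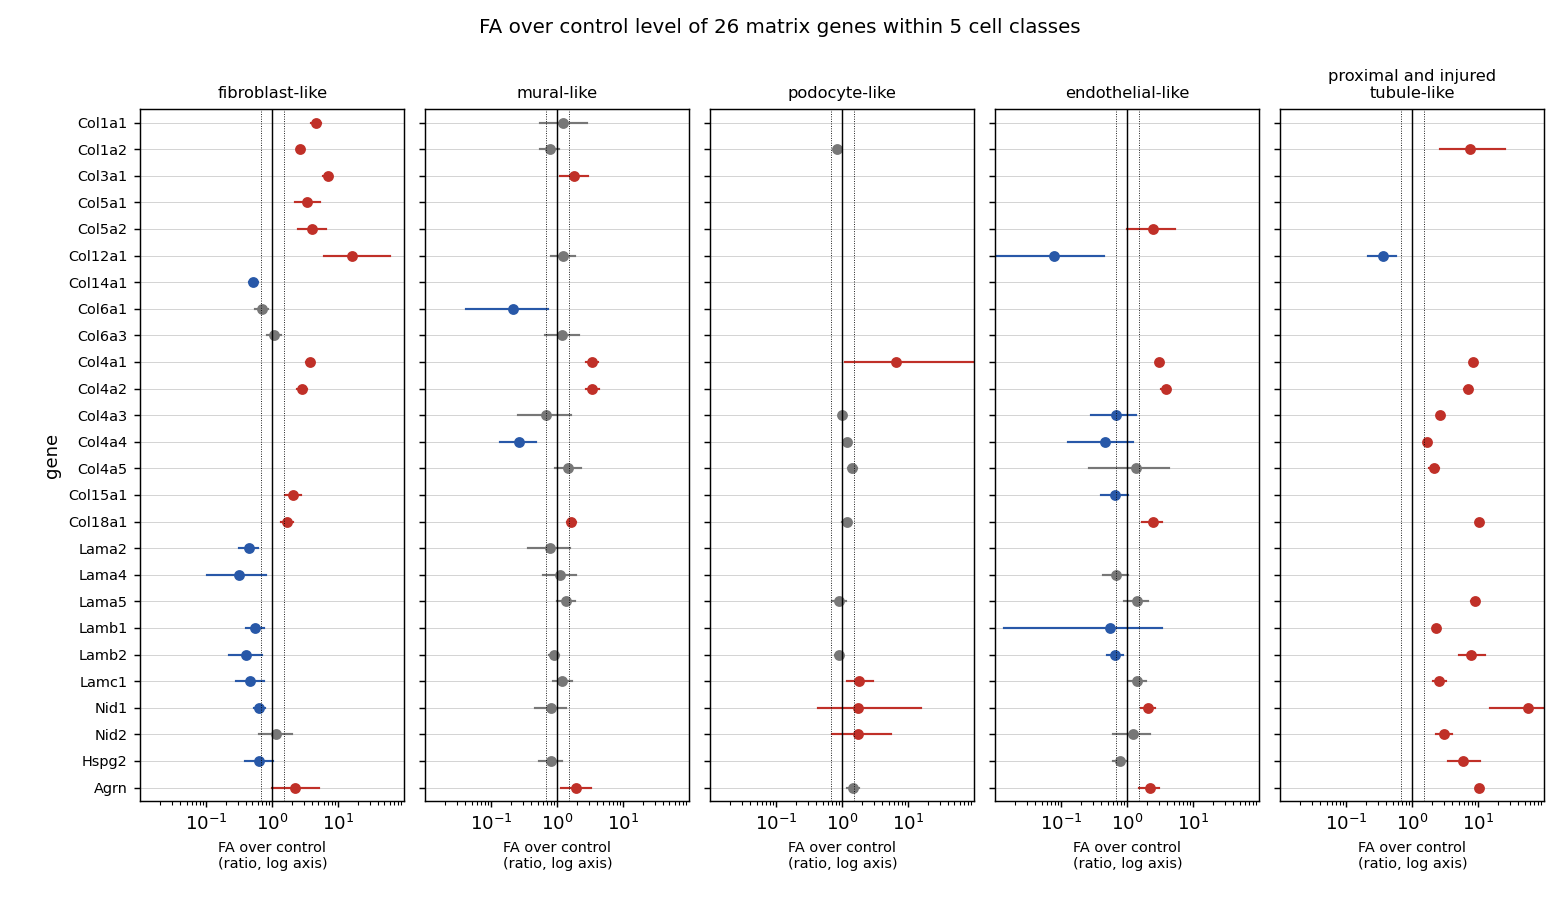
FA over control ratio (log axis) of 26 of the genes in 5 cell classes, with 95% counting intervals as lines drawn between 0.01 and 100, where measured, and dotted lines at 1.5 and its inverse. Red points are at 1.5 or above, blue at its inverse or below, grey between; Col4a1 and Col4a2 are red in fibroblast-like, mural-like, endothelial-like and tubule-like cells, and laminin chains are blue in fibroblast-like but Lama5, Lamb1, Lamb2 and Lamc1 red in tubule-like cells.

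In podocyte-like cells, Col4a3 was at the same level in both libraries within its counting error, and Col4a4 and Col4a5 were higher in FA by less than the fold that makes a call. Of 13 members measured, 4 were higher (13.8% of all genes) and none lower (12.4% of all genes). Col4a3 had 1160 UMIs or 1229 CPM in control and 7625 UMIs or 1226 CPM in FA, a ratio of 0.998 (0.938 to 1.06). Col4a4 was at 896 and 1036 CPM, a ratio of 1.16 (1.08 to 1.24), and Col4a5 at 172 and 244, a ratio of 1.42 (1.21 to 1.68). With each cell weighed the same, the log2 ratios of Col4a4 and Col4a5 were smaller, at 0.09 (0.21 when summed) and 0.24 (0.51). Col4a6, the neighbour of Col4a5, was at 14.8 and 12.1 CPM. Lamb2 and Lama5, chains of the laminin of the filter, were at 285 and 252 and at 91.1 and 80.4 CPM, with ratios of 0.883 each (0.776 to 1.01 and 0.701 to 1.12). Agrn, the main proteoglycan of that membrane, was at 112 and 163 CPM, a ratio of 1.45 (1.19 to 1.79), and Lamc1 at 23.3 and 42.3, a ratio of 1.81 (1.17 to 2.95). The other 3 called higher had few UMIs: Col4a1 had 1 and 43, with 6.92 CPM in FA against 16.1 in FA lymphocytes, Nid1 had 2 and 23, and Nid2 had 5 and 56.

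Col1a2 was present in podocyte-like cells without Col1a1. It had 453 UMIs or 479.9 CPM in control and 2474 UMIs or 398 CPM in FA, a ratio of 0.829 (0.750 to 0.919), and 77.1% and 69.0% of the cells held 1 or more. Its log2 ratio was -0.27, but -0.64 with each cell weighed the same, which passed the fold for lower. Col1a1 was listed at 0 in both, which allowed up to 3.18 CPM in control and 0.483 in FA, and of 7 fibroblast markers Dcn, Lum and Dpt were at 0 in both libraries. Podocyte-like cells held 47.1% of all Col1a2 UMIs of kept cells in control and 70.3% in FA. Col1a2 in lymphocytes was at 0.777 and 1.26 CPM. Podocyte-like cells were 71 and 656 in cluster 10 and 12 and 179 in the shallower cluster 28, and in cluster 10 alone Col1a2 was at 476 and 403 CPM and Col4a3 at 1239 and 1233.

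The further lists in podocyte-like cells are read against the 13.8% of all genes higher and 12.4% lower there. Plod2, a lysyl hydroxylase, was at 393 and 725 CPM, a ratio of 1.84 (1.66 to 2.06), and P3h2 at 371 and 359. Of the modifying enzymes 15 were measured, 2 higher and 1 lower. Pcolce was at 376 and 304 and Loxl2, a crosslinking enzyme, at 110.2 and 118 CPM, with 5 of 12 secretion and crosslinking genes higher and 0 lower. Sparc was at 4051 and 7068 CPM and Npnt, an integrin ligand of the filter, at 1612 and 1415, with 3 of 7 other matrix proteins higher and 1 lower. Sdc4, a receptor proteoglycan, was at 3216 and 5452 CPM and Itgb1 at 943 and 1349, with 4 of 11 receptors higher and 1 lower. Ccn2 was at 209 and 237 and Tgfbr3 at 203 and 165 CPM, with 2 of 14 TGF-beta genes higher and 2 lower.

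**Figure D3:**
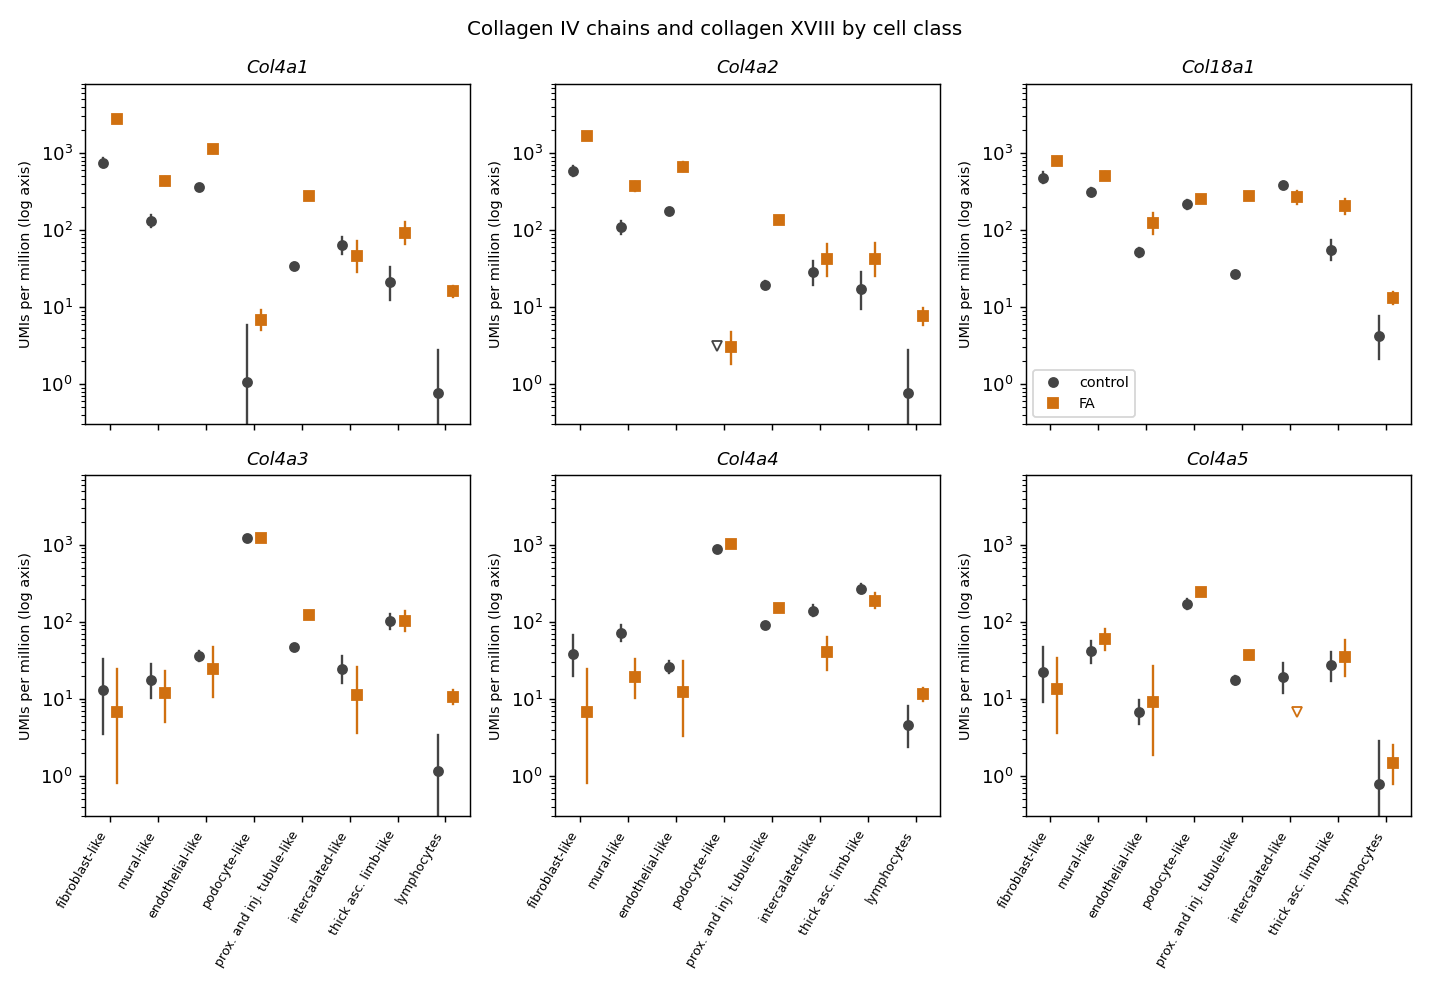
Level of 5 collagen IV chains and Col18a1 (CPM, log axis) in 7 cell classes and in lymphocytes, control as circles and FA as squares, with 95% counting intervals; open triangles mark the limit that a count of 0 allows. Col4a1 and Col4a2 are both called higher in FA in 5 of the 7 classes. They are at most 6.92 CPM in podocyte-like cells, where Col4a3 and Col4a4 are highest in both libraries.

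In proximal and injured tubule-like cells, nearly all members measured were higher in FA. Of 27, 24 were higher (36.3% of all genes) and 2 lower (17.0% of all genes), with a median log2 ratio of 1.90 against 0.26 over all genes. Col18a1 had 438 UMIs or 26.9 CPM in control and 2209 UMIs or 276 CPM in FA, a ratio of 10.3 (9.28 to 11.4). Agrn was at 21.2 and 215 CPM, a ratio of 10.2 (9.06 to 11.5), and Lama5, the laminin alpha chain of most kidney epithelia, at 21.5 and 189, a ratio of 8.78 (7.81 to 9.89). Col4a1 was at 34.0 and 279 CPM, a ratio of 8.20 (7.47 to 9.02), and Col4a2 at 19.3 and 134, a ratio of 6.95 (6.12 to 7.90). Col4a3 and Col4a4, the podocyte chains, were at 47.1 and 125 and at 91.9 and 153 CPM, ratios of 2.65 (2.41 to 2.91) and 1.66 (1.54 to 1.79). The call of Col4a4 rested on the filters: its log2 ratio was 0.73, but 0.14 at a mitochondrial limit of 20%, 0.11 with no limit, 0.36 with likely doublets kept and 0.48 at resolution 2, none past the fold. Agrn and Lama5 stayed higher by less with no mitochondrial limit, at log2 ratios of 2.07 (3.35 with the limit of 50%) and 1.37 (3.13), and Lama5 at 1.84 with doublets kept. In FA lymphocytes these 7 genes were between 7.68 (Col4a2) and 16.1 CPM (Col4a1). At 1000 UMIs a cell, 2.51% of control and 24.0% of FA tubule cells held a Col4a1 UMI (18.9% and 49.0% unthinned, at medians of 6063 and 2642 UMIs), against 0.131% and 1.27% of lymphocytes.

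The lower members were Lama3, a chain of epithelial anchoring laminin, at 32.0 and 18.5 CPM with a ratio of 0.579 (0.479 to 0.697), and Col12a1 at 7.79 and 2.75. Col27a1 was at 212 and 196 CPM over these cells, a log2 ratio of -0.12, which passed the fold for lower at a mitochondrial limit of 20% (-0.88), with no limit (-0.65) and with doublets kept (-0.62). Nid1 and Col17a1, a collagen of epithelial anchoring sites, went from 2 and 1 UMIs to 55 and 28, at no more than 6.88 CPM in FA. The laminin gamma and beta partners Lamc1 and Lamb1 were at 7.85 and 20.1 and at 41.8 and 96.1 CPM, ratios of 2.57 (2.02 to 3.26) and 2.30 (2.07 to 2.55). Col8a1 was at 14.5 and 23.5 CPM. Of 13 receptors measured, 12 were higher (36.3% of all genes) and 0 lower (17.0% of all genes). Of 14 collagen-modifying genes, 11 were higher and 1 lower, against the same shares.

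Different clusters held this class in control and FA. Control cells were nearly all proximal tubule-like, in clusters 4, 14, 23 and 24, whereas 1643 of the 2167 FA cells were injured tubule-like (clusters 0 and 34) and 524 were proximal tubule-like (518 in cluster 16). Over proximal tubule-like cells alone, 19 of 21 members were higher (26.5% of all genes) and 2 lower (17.2% of all genes). There Col4a3 was at 47.1 and 231 CPM, a ratio of 4.90 (4.38 to 5.47), Col4a1 at 33.6 and 176, Agrn at 20.8 and 109.7, and Col27a1 at 212 and 401. In injured tubule-like cells of FA, Col4a1 was at 324 CPM, Agrn at 261 and Lama5 at 232, above the FA proximal tubule-like cells, and Col4a3 at 78.5, below them. An unnamed FA cluster of 1076 cells, led by Fgg, Spp1 and Cyp4a10, had Col4a1 at 306 CPM, Col18a1 at 352 and Agrn at 76.2. The 16 proximal tubule markers summed to 34434 CPM in control and 14037 in FA proximal tubule-like cells, and 11 injured tubule markers to 1162 and 32602; the part of this shift in the ratios was not tested.

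In intercalated-like cells, the acid-base cells of the collecting duct, more members were lower than higher in FA, but not with likely doublets kept, when 3 were higher and 2 lower and Col4a5 (log2 ratio -0.53) and Lamb2 (-0.50) were not called. Of 11 members measured, 1 was higher (23.9% of all genes) and 6 lower (21.0% of all genes), 3 of them with an interval that left out 1. Col18a1 was at 388 and 266 CPM, a ratio of 0.685 (0.555 to 0.842). Col4a4 was at 140 and 40.2 CPM, a ratio of 0.287 (0.166 to 0.469). Lamb2 was at 77.4 and 38.0 CPM, and Col4a5 had 21 UMIs in control and 0 in FA. With a floor of 3 UMIs in the FA library, the ratio of Col4a5 was 0.350, with a counting interval of 0 to 0.471. The intervals of Col4a1, Col4a2, Col4a3, Lama5, Lamb1 and Lamc1 took in 1, with Col4a1 at 63.7 and 46.9 CPM and Lama5 at 32.8 and 22.3. Of 151 control cells, 68 were in the deep cluster 35 and 83 in cluster 22, whereas 214 of 230 FA cells were in cluster 22, and the class medians were 5784 and 1107.5 UMIs. Within cluster 22 alone Col18a1 was at 237 and 127 CPM and Col4a4 at 19 and 6 UMIs.

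Thick ascending limb-like cells (102 and 50), of the salt-reabsorbing segment, had Col18a1, Agrn and the Col4a1 and Col4a2 pair higher in FA. Of 13 members measured, 6 were higher (16.3% of all genes) and 1 lower (22.6% of all genes). Col18a1 was at 55.6 and 204 CPM, a ratio of 3.66 (2.52 to 5.37), and Col4a1 at 21.0 and 92.3, a ratio of 4.39 (2.43 to 8.28). Col5a2 peaked in these cells in both libraries (1.71% and 2.29% of all genes), at 255 and 182 CPM.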

How the data were processed

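Kidney cells of 1 control and 1 FA library were analysed from the deposited matrix of whole UMI counts per gene and barcode. Per the submitters' processing notes, Seurat and mm10 were used; aligner and counter were not given in the sources used here. Columns whose barcodes begin with C3 were read as the control cells by that letter, since those beginning with FA3 carry the other sample's name; no key states it. A column of another sample did not occur (0). In each library a gene above 0 was seen in at least 10 barcodes, so a gene at 0 was rarer or not counted. In 230 cases an older and a newer name of 1 gene were joined through RefSeq synonyms, no member among them.

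Barcodes with 200 genes, 500 UMIs and at most 50% mitochondrial UMIs were kept; 488 control and 2420 FA likely doublets (0.8% per 1000 barcodes, by the share of simulated pairs among 15 neighbours) were left out. The number of neighbours was lowered after the data were seen, since a wider score removed the rare classes. Cells were scaled to 10000 UMIs, and 2000 variable genes other than the members gave 30 principal components, 15 neighbours and Leiden clusters at resolution 1 (scanpy 1.11.5). Clusters were named from fixed markers. Both libraries held 54 of the same barcode sequences. Counts were summed by class and library, and ratios have exact 95% conditional binomial intervals. These were checked on counts simulated with counting error alone, so the check did not cover spread between cells. Shares have Clopper-Pearson intervals. Intervals and floors (3 UMIs) cover counting error only. Values were named by a rule: basement membrane chains in podocyte-like and endothelial-like cells, and in each class the 6 highest levels and the 5 highest and 5 lowest ratios; of each further list the genes of highest level in stromal-like (3) and podocyte-like (2) cells; other members named were chosen after their values were seen. Alternatives were a mitochondrial limit of 20% or none, doublets kept, resolutions of 0.5 and 2, members among the clustering genes, equal weight for each cell, 50 UMIs to be measured and the lymphocyte level subtracted. The members and lists were chosen with earlier results of these data known. Promoter windows were RefSeq's, GRCm38.p6; 33 members had one. A single member is counted in the totals but its own values are not reported here.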

Additional observations from a re-analysis of the deposited data

Results flagged for a closer look

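Opposite directions of a gene were searched for between the whole classes compared above, stromal-like cells being taken as 1 class. A gene had to be called higher in 1 class and lower in another, with both intervals leaving out 1. Such a pair of classes was found for 4 members. Members short of a call on a side, such as Col1a2, Nid1, Hspg2 and Col18a1, were not counted, even where both intervals left out 1. None of the differences was tested, since each class had 1 library a group. Col4a4 in FA was at 1.66 times its control level in proximal and injured tubule-like cells, against 0.238 times in stromal-like and 0.287 times in intercalated-like cells. The tubule log2 ratio of Col4a4 (0.73) was 0.14 and 0.11 at a mitochondrial limit of 20% or none, and the stromal one (-2.07) was -0.88 with likely doublets kept. Col4a5 was at 2.11 times in tubule-like cells and, with a floor of 3 UMIs, at 0.350 times (0 to 0.471) in intercalated-like cells. Col12a1 was at 2.56 times in stromal-like cells, against 0.0785 times in endothelial-like cells (175 control UMIs and 1 FA UMI) and 0.353 times in tubule-like cells. Lamb2 was at 7.78 times in tubule-like cells, where its levels were 1.66 and 12.9 CPM, against 0.650 times in endothelial-like and 0.491 times in intercalated-like cells. Fibroblast-like cells, left out of that search as a subset of the stromal-like cells, had Lamc1 at 0.464, Lamb1 at 0.551 and Col16a1 at 0.485 times the control level, against 2.57, 2.30 and 5.69 times in tubule-like cells, and Nid1 at 0.635 times, against 2.05 times in endothelial-like cells.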

How the results depend on the processing

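Of 899 values of 93 single-gene ratios under the alternatives, 793 stayed within the counting interval of the reported value, 95 moved and 11 reversed. The narrower doublet score behind the reported values was chosen after the data were seen. With doublets scored over many neighbours, log2 ratios in stromal-like cells reversed for Col1a1 (-2.25), Col1a2 (-1.81), Col3a1 (-0.75) and Col5a1 (-2.17). Members higher were then 5 in the whole library and 6 in stromal-like cells, and 19 were lower in stromal-like cells. In podocyte-like cells 1 was lower, and in intercalated-like cells 0 were higher. Peaks in FA were 5 in podocyte-like and 0 in endothelial-like cells. That score left 107 FA stromal-like cells, all in the mural-like cluster, and 41 FA endothelial-like cells. Its fibroblast-like cluster held 52 control and 0 FA cells. The stromal-like values under that score thus set control fibroblast-like and mural-like cells against FA mural-like cells alone. Fibroblast-like and endothelial-like cells could not be compared under that score. With each cell weighed the same, 16 members were lower in stromal-like and 1 in podocyte-like cells, and in intercalated-like cells 2 were higher and Col4a3 reversed (0.36). With likely doublets kept, 1 was lower in podocyte-like cells, 3 were higher and 2 lower in intercalated-like cells, where Col4a3 (0.46) and Lamc1 (0.12) reversed, Lamb1 reversed in endothelial-like cells (0.45), and 4 peaked in control tubule-like cells. With the lymphocyte level subtracted, 2 were higher and 1 lower in podocyte-like cells, where Col4a1 (-2.72) and Nid1 (-0.13) reversed, Lamb1 reversed in endothelial-like cells (0.94) and 0 were higher in intercalated-like cells. With 50 UMIs needed, 5 were lower in stromal-like and 2 in intercalated-like cells, and 2 were higher in podocyte-like cells. Peaks in FA tubule-like cells were 1 at a mitochondrial limit of 20% and 3 with none, when 2 were also higher in intercalated-like cells. Beyond what an alternative itself removes, the cause was not tested. Intervals cover counting error, and with 1 library a group animal, treatment, sex and the difference in gene names cannot be told apart. No paired analysis was possible because each group has 1 library.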

Other observations

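Several members had a level in cells outside the classes compared. Lamb3, the beta chain of epithelial anchoring laminin, was at 115 CPM in control and 106 in FA B cell-like cells (63 and 104 UMIs) and at 164 and 147 in urothelial-like cells. Col14a1 was at 57.9 and 73.5 CPM in macrophage-like cells (243 and 896 UMIs), the second highest level after stromal-like cells in both libraries. Of 75 control Col26a1 UMIs, 59 were in the 47 principal-like cells, at 117 CPM. Parietal epithelial-like cells, 93 in control and 42 in FA and so too few to be compared, had Col4a1 at 577 and 1684 CPM, Col4a2 at 204 and 678 and Col18a1 at 912 and 844. Col11a2 had 52 UMIs in FA and 0 in control, and the part of the different gene names of the libraries in this was not tested.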
